A study of Mus musculus with 12 samples.

Results

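The 8 genes described here belong to cholesterol synthesis. Hmgcs1, Idi1, Fdps, Fdft1, Sqle, Lss and Cyp51 encode enzymes of the pathway, and Insig1 encodes a protein that regulates it. They were picked by gene symbol from the 23282 genes of the count table. All 8 were counted in each of the 12 tumors and were among the 13464 genes left after a filter on low counts.

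The tumors were grown from MC38, a mouse colon carcinoma line, implanted subcutaneously in wild-type female C57BL/6 mice that were 6 weeks old. Con mice received vehicle (saline with DMSO and Tween 80) and an IgG2a control antibody. SFIH mice received 50 mg/kg of SFIH into the abdominal cavity every day together with IgG2a, SFIH being the fraction of Inula helenium root that is rich in sesquiterpene lactones. PD mice received 200 µg of an antibody against PD-1, an inhibitory receptor of T cells, 2 times a week, and Comb mice received both agents at these doses. Each group has 3 tumors, taken on day 19, and mRNA was read from its 3′ end in whole tumor tissue. The labels call the samples tumor cells, but the tissue also holds cells of the host, and a single line was used. Nothing in the labels states that the 3 tumors of a group came from separate mice, so the p-values below measure the spread between these tumors.

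Cells build cholesterol from acetyl-CoA through mevalonate, isoprenoid diphosphates, squalene and lanosterol. The pathway is governed by the transcription factor SREBP2, which is held in the endoplasmic reticulum by SCAP and INSIG proteins while sterols are plentiful. When sterols run low SREBP2 is cleaved, enters the nucleus and activates the genes of nearly every step, together with Insig1. Dividing cells need cholesterol for new membranes, and macrophages handle it largely by uptake, storage and export.

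Totals ran from 7870741 to 12261032 counts per tumor. Levels are given as counts per 1000000 (CPM) on library sizes scaled by TMM, the trimmed mean of M-values, whose factors lay between 0.760 and 1.12. Comb replicate 3 stood apart from the other 11 tumors. Its 12 skeletal muscle markers summed to 9642 CPM against 11.3 to 852, its 9 macrophage markers to 15034 against 565 to 4120, and its 7 fibroblast markers to 22843 against 994 to 11713. The 8 adipocyte markers summed to 1401 CPM in it against 33.4 to 512, the 8 keratinocyte markers to 481 against 8.30 to 43.5, and the 7 T cell markers to 333 against 21.4 to 126. Its 12 proliferation genes summed to 436 CPM against 2801 to 3746, and 11 of the 12 were lowest in that tumor. The 8 sebaceous gland markers, of which Soat1 is also in the export list below, summed to 225 CPM in Comb replicate 3 and 271 to 381 elsewhere, with Mc5r at 0 in every tumor. Their directions were split, with 3 of the 8 highest (34.1% of all genes) and 2 lowest (38.6%) in Comb replicate 3. Soat1 alone was at 81.9 CPM there and at 125 to 231 elsewhere. Markers of colon epithelium were low in all tumors, at 4.69 to 25.2 CPM summed over 9 genes outside Comb replicate 3 and 116 in it, with Lgals4 at 0 throughout. Fitted differences of the Comb group are therefore given with and without that tumor. In bulk tissue, fewer cells of a type and less RNA per cell cannot be told apart.

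**Figure D1:**
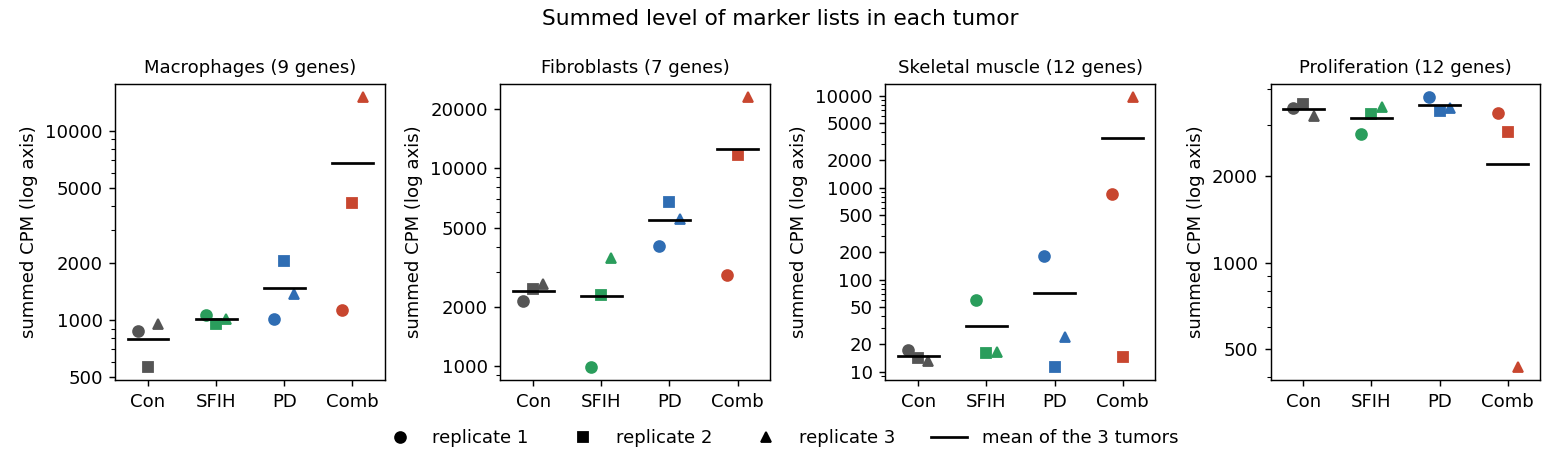
Summed CPM (log axis) of the macrophage, fibroblast, skeletal muscle and proliferation marker lists in each of the 12 tumors, by group, with a bar at the mean of 3 tumors. Comb replicate 3 is the highest tumor for macrophage (15034), fibroblast (22843) and muscle (9642) markers and the lowest for proliferation genes (436).

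The promoters of these genes are where SREBP2 acts, usually beside the trimeric factor NF-Y, which binds CCAAT boxes, and Sp1, which binds GC boxes. RefSeq promoter windows (GRCm38.p6) were matched by symbol for 5 of the 8 genes, Hmgcs1, Idi1, Lss, Cyp51 and Insig1. The 250 bases before the annotated start were searched on both strands for the sterol regulatory element core CACNCCAC, for CCAAT and for GGGCGG. The windows of Hmgcs1, Idi1 and Insig1 are shown since the first holds the element as written, the last holds it in reverse complement, and Idi1 holds no match to it and had the widest range among the SFIH tumors as a percent of the Con mean. Capitals mark matches to CACNCCAC (read as GTGGNGTG on the other strand) and to the CCAAT box, which reads ATTGG on the other strand.
Hmgcs1, chr13:119690101-119690350, plus strand: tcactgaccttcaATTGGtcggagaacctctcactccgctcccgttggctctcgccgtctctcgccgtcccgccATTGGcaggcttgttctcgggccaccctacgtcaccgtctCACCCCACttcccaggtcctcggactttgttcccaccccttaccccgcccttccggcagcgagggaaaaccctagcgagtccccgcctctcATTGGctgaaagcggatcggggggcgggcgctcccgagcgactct
Insig1, chr5:28071162-28071411, plus strand: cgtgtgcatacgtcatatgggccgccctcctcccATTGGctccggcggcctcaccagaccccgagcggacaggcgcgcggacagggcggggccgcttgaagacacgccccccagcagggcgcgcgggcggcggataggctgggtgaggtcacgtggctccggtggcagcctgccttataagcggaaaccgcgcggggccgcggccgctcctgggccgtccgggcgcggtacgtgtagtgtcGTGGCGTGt
Idi1, chr13:8885356-8885605, plus strand: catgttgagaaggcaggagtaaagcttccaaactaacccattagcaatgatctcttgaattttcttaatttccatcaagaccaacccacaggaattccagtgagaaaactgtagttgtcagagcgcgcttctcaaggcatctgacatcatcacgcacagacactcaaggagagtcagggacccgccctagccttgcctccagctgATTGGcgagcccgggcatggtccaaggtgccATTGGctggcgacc

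The element core began 136 bases before the start in Hmgcs1 and 9 bases before it in Insig1, and 2 of the 5 windows held it, against 5.29% of the 32851 promoters of this length. A CCAAT box was present in 5 of 5 windows, against 33.8% of all promoters, and Hmgcs1 held 3 of them. A GC box was also present in 5 of 5, against 32.7% of all. These matches describe letters in the windows, and no binding was measured.

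Hmgcs1 encodes cytosolic HMG-CoA synthase, which supplies the substrate of HMG-CoA reductase. Its level was 424, 323 and 289 CPM in Con replicates 1 to 3, 305, 275 and 326 in the SFIH tumors, 462, 157 and 413 under anti-PD-1 alone, and 299, 231 and 29.2 in the Comb tumors. The SFIH values lay close together and overlapped Con, while PD replicate 2 and Comb replicates 2 and 3 lay below every Con and SFIH tumor.

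Idi1 encodes the isomerase that turns isopentenyl diphosphate into dimethylallyl diphosphate. It was at 10.97, 19.7 and 19.99 CPM in the Con tumors, 47.4, 35.5 and 16.7 in the SFIH tumors, 27.1, 5.59 and 12.2 under anti-PD-1 alone, and 26.9, 17.5 and 5.17 in the Comb tumors. SFIH replicates 1 and 2 were the highest tumors of the 12, at 281% and 210.4% of the Con mean, but SFIH replicate 3 lay inside the Con range. The paralog Idi2 had 2 counts in PD replicate 2 and none in the other 11 tumors.

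Fdps encodes farnesyl diphosphate synthase, whose product feeds sterols, protein prenylation, dolichol and ubiquinone. Its values were 149, 112 and 124 CPM in the Con tumors, 169, 145 and 157 in the SFIH tumors, 163, 77.2 and 152 under anti-PD-1 alone, and 154, 163 and 12.5 in the Comb tumors. SFIH replicates 1 and 3 exceeded every Con tumor, as did both Comb tumors other than replicate 3, so the low mean of the Comb group rested on 1 tumor.

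Fdft1 encodes squalene synthase, the first enzyme committed to sterols. It measured 61.1, 45.1 and 53.1 CPM in the Con tumors, 69.7, 52.1 and 52.0 in the SFIH tumors, 43.9, 40.1 and 47.7 under anti-PD-1 alone, and 59.2, 74.5 and 154 in the Comb tumors. Unlike the other 7 genes, it was highest in Comb replicate 3, as were 34.1% of all genes tested. The PD group was the lowest and its 3 tumors lay below all 3 Comb tumors.

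Sqle encodes squalene epoxidase, an oxygen-dependent and rate-limiting step. It was at 121, 87.5 and 91.5 CPM in the Con tumors, 130.1, 108 and 123 in the SFIH tumors, 146, 57.1 and 125 under anti-PD-1 alone, and 110.3, 81.7 and 7.22 in the Comb tumors. PD replicates 1 and 3 exceeded all Con tumors while PD replicate 2 lay below them, Comb replicate 1 lay inside the Con range and Comb replicate 2 under it.

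Lss encodes lanosterol synthase, which closes the sterol rings. Its values were 29.7, 29.5 and 37.0 CPM in the Con tumors, 45.1, 35.5 and 34.9 in the SFIH tumors, 48.5, 28.9 and 39.4 under anti-PD-1 alone, and 46.0, 32.6 and 1.20 in the Comb tumors. The Comb replicate 3 value came from 10 counts, with an exact 95% Poisson interval of 0.577 to 2.21 CPM that covers counting error only, and it lay far under the next lowest tumor. In PD replicate 2 Lss was at 90.2% of the Con mean, closer to it than any of the other 7 genes in that tumor.

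Cyp51 encodes lanosterol demethylase, the cytochrome P450 that begins the trimming of lanosterol. It was at 520.4, 395 and 376 CPM in the Con tumors, 517, 422 and 499 in the SFIH tumors, 599.8, 238 and 512 under anti-PD-1 alone, and 472, 382 and 47.2 in the Comb tumors. Its pattern across tumors resembled that of Sqle, with PD replicate 1 highest and Comb replicate 3 lowest.

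Insig1, the member that retains SREBP2 rather than making sterols, measured 21.4, 19.97 and 19.5 CPM in the Con tumors, 40.1, 25.3 and 22.1 in the SFIH tumors, 25.7, 11.9 and 20.1 under anti-PD-1 alone, and 26.9, 16.7 and 8.42 in the Comb tumors. The Con tumors were nearly equal, and all 3 SFIH tumors lay above them. PD replicate 2 and Comb replicates 2 and 3 were the only tumors below the Con range.

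**Figure D2:**
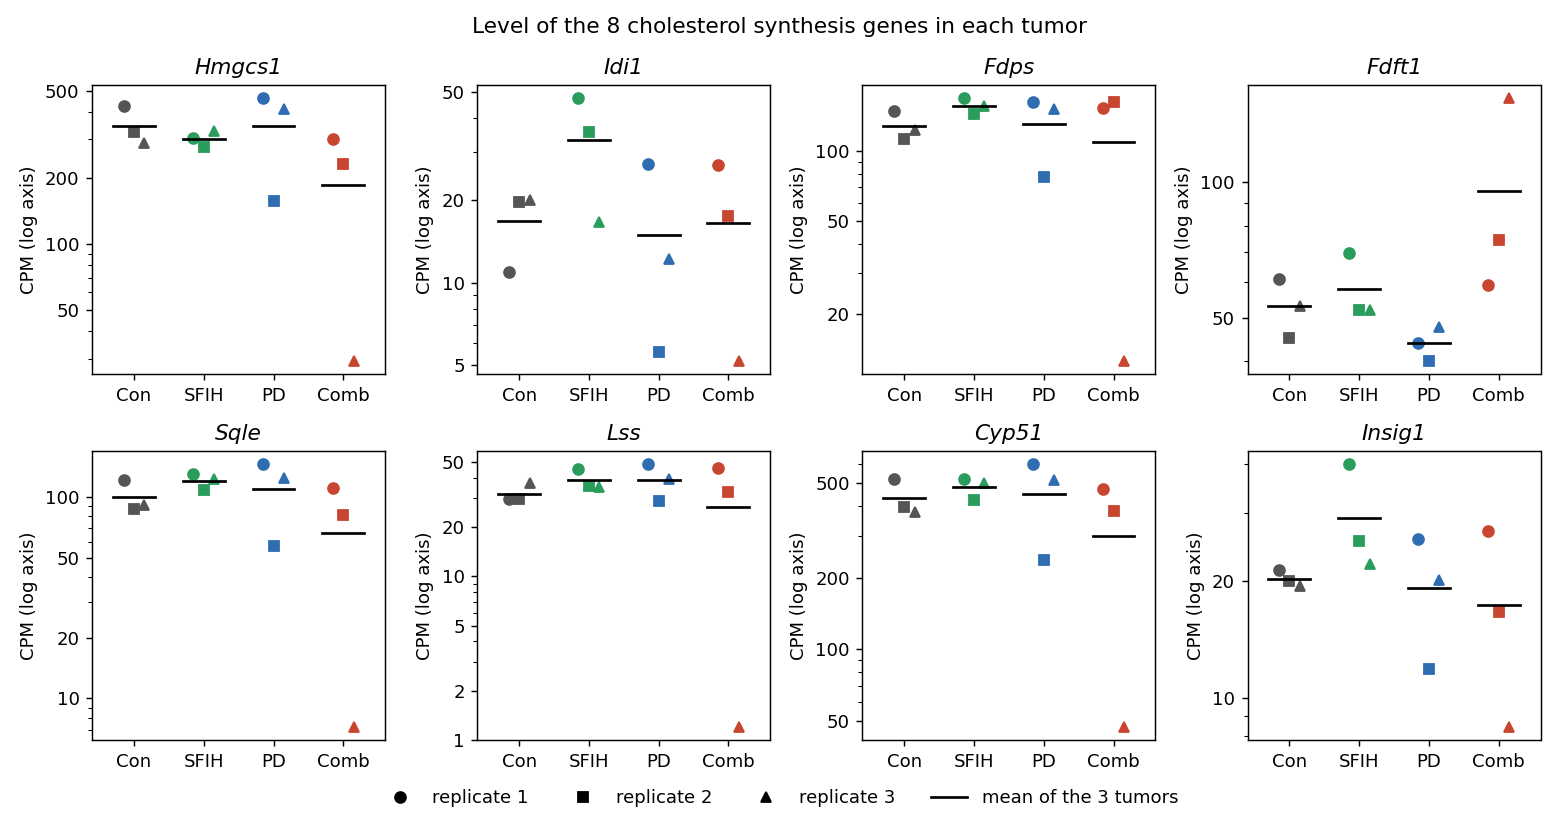
CPM (log axis) of each of the 8 genes in the 12 tumors, by group, with symbols for replicates and a bar at the mean of 3 tumors. Comb replicate 3 is the lowest tumor in 7 panels and the highest in the Fdft1 panel, and PD replicate 2 is the next lowest in those 7 panels.

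Low values were shared by the genes within tumors. Comb replicate 3 was the lowest of the 12 tumors for 7 of the 8 genes, against 38.6% of all genes tested. Those 7 genes stood there at 3.75% (Lss) to 41.5% (Insig1) of their Con means, with a median of 9.75%, whereas Fdft1 stood at 289%. Proliferation genes were lowest and macrophage, fibroblast and muscle markers highest in that tumor, and their part in these values was not tested.

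PD replicate 2 was the lowest of the 11 other tumors for 8 of 8 genes, against 12.1% of all genes. Without Fdft1 the genes stood at 33.1% (Idi1) to 90.2% (Lss) of the Con mean in it, with a median of 57.2%. Its macrophage markers summed to 2059 CPM and its fibroblast markers to 6782, against 1016 and 4069 in PD replicate 1 and 1365 and 5553 in PD replicate 3. Its proliferation genes summed to 3359 CPM, inside the Con range of 3216 to 3543. T cell markers summed to 109.9 CPM in it against 39.7 and 51.0 in the other PD tumors, and colon epithelium markers to 22.8 against 5.23 and 5.498. The part of these cell types in the low values was not tested. PD replicate 1 went the other way, with the genes other than Fdft1 at 127% to 161% of the Con mean and Fdft1 at 82.7%.

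The question of the SFIH comparison is what the lactone fraction alone changed in these tumors. Insig1 and Idi1 had the largest fitted increases, and Hmgcs1 was the one gene fitted lower. Insig1 averaged 20.3 ± 1.01 CPM in Con and 29.2 ± 9.59 in SFIH (mean ± SD, n = 3), and Idi1 16.9 ± 5.12 and 33.2 ± 15.5. Insig1 was 0.53 ± 0.40 (log2 fold change ± SE) higher in SFIH than in Con with an adjusted p of 0.9998 by edgeR's quasi-likelihood test, and was the one member whose SFIH tumors all lay above the Con tumors, as did 8.55% of all genes. The exact two-sided permutation test gave p = 0.1, the smallest that 3 against 3 allows. On plain library totals the Insig1 groups overlapped, with SFIH replicate 3 at 21.7 CPM and Con replicate 1 at 22.3, and without SFIH replicate 1 the fitted difference was 0.22. Idi1 was 0.98 ± 0.64 higher with the same adjusted p, and the groups overlapped. Its fitted difference was 0.62 without SFIH replicate 1 and 1.30 without SFIH replicate 3. Fdps, Sqle and Lss were fitted 0.27 to 0.29 higher, Cyp51 0.16, Fdft1 0.13, and Hmgcs1 at -0.19 ± 0.63. No member was called at an adjusted p under 0.05, nor was any gene of the 13464 (0%), with 303 genes and none of the members at an unadjusted p under 0.05. DESeq2 called 4 genes over the table and no member. With Comb replicate 3 left out of the shared fit the SEs of the 8 genes went from 0.31 to 0.75 down to 0.17 to 0.50, and 1020 genes, again no member, had an unadjusted p under 0.05. The median over the 8 genes was 0.27, against 0.02 over all genes, and 7 of 8 were fitted higher.

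In the comparison of anti-PD-1 alone with Con, no direction was shared. Lss was fitted 0.28 ± 0.75 higher and Sqle 0.13 ± 0.67 higher, while Fdft1 was at -0.27 ± 0.31 and Idi1 at -0.17 ± 0.64. Hmgcs1, Fdps, Cyp51 and Insig1 lay between -0.07 and 0.06. The median was 0.01 over the 8 genes and 0.01 over all genes, and the 8 adjusted p-values (edgeR) were 0.9998. edgeR called 0% of all genes here and no member, with 537 genes (1461 without Comb replicate 3) but no member at an unadjusted p under 0.05, and DESeq2 called 6 genes and no member. Within the group, the median of the genes other than Fdft1 was 139% of the Con mean in PD replicate 1 and 57.2% in PD replicate 2. Leaving out PD replicate 2 moved the fitted value of Hmgcs1 from near 0 to 0.34 and that of Cyp51 from 0.06 to 0.37.

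In the combination, 7 of the 8 genes were fitted below Con with all tumors, and 4 of these 7 turned to above Con when Comb replicate 3 was left out. Against Con, Hmgcs1 was at -0.89 ± 0.63, Sqle at -0.59 ± 0.67 and Cyp51 at -0.52 ± 0.61, and without that tumor the same genes were at -0.38, -0.06 and -0.01. Leaving out Comb replicate 1 instead moved them to -1.40, -1.16 and -0.996. Idi1, Fdps, Lss and Insig1, fitted at -0.03 to -0.27 with all tumors, turned to 0.40, 0.31, 0.29 and 0.11 without it. The median over the 8 genes was -0.24 with all tumors (-0.03 over all genes) and 0.20 without Comb replicate 3 (-0.01 over all genes). Adjusted p-values of the 7 genes other than Fdft1 ran from 0.381 to 0.982 (edgeR, all tumors). No member was called, and edgeR called 0% of all genes, although 3406 genes had an unadjusted p under 0.05 and DESeq2 called 1998, none of them a member. Without Comb replicate 3 edgeR called 5 of 13621 genes, again no member, and 2562 had an unadjusted p under 0.05. The common dispersion, which measures the variability of counts between tumors, was 0.158 with Comb replicate 3 and 0.0682 without it.

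Adding SFIH to anti-PD-1 was compared with anti-PD-1 alone. Hmgcs1 was at -0.89 ± 0.63 in Comb against PD, Sqle at -0.72 ± 0.67, Cyp51 at -0.58 ± 0.61 and Lss at -0.55 ± 0.75. Without Comb replicate 3 these were -0.38, -0.19, -0.08 and 0.01. Fdps was at -0.25 ± 0.64, Insig1 at -0.15 ± 0.41 and Idi1 at 0.14 ± 0.64, and at 0.28, 0.18 and 0.56 without that tumor. The median over the 8 genes was -0.40 with all tumors and 0.09 without Comb replicate 3. Fdft1 alone had an unadjusted p under 0.05, and its values are given below with those of a gene that it overlaps. The background was 0% called by edgeR of all genes, with 2424 (1228 without Comb replicate 3) at an unadjusted p under 0.05, and DESeq2 called 417 genes including Fdft1. Against SFIH alone, Idi1 was at -1.004 ± 0.642 and Insig1 at -0.75 ± 0.40 (edgeR adjusted p of 0.407 and 0.340), and at -0.58 and -0.42 without Comb replicate 3 but -1.53 and -1.20 without Comb replicate 1. The 7 genes other than Fdft1 ran from -0.52 to -1.004 with all tumors and from -0.58 to 0.03 without Comb replicate 3. In this comparison edgeR called 0% of all genes and no member, 2559 genes (1469 without Comb replicate 3) had an unadjusted p under 0.05, and DESeq2 called 1157 genes and no member. Comparisons with Con and those with the Comb group share tumors, so their values are not independent of each other.

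The interaction asks whether the SFIH difference itself changed when anti-PD-1 was present. The 7 genes other than Fdft1 were fitted at -0.54 to -0.99 with SE from 0.57 to 1.06, and at -0.46 to -0.02 without Comb replicate 3. Adjusted p-values ran from 0.894 to 0.8965 (edgeR), and 0% of all genes were called, with 344 (211 without Comb replicate 3) at an unadjusted p under 0.05 and 1 called by DESeq2, not a member.

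**Figure D3:**
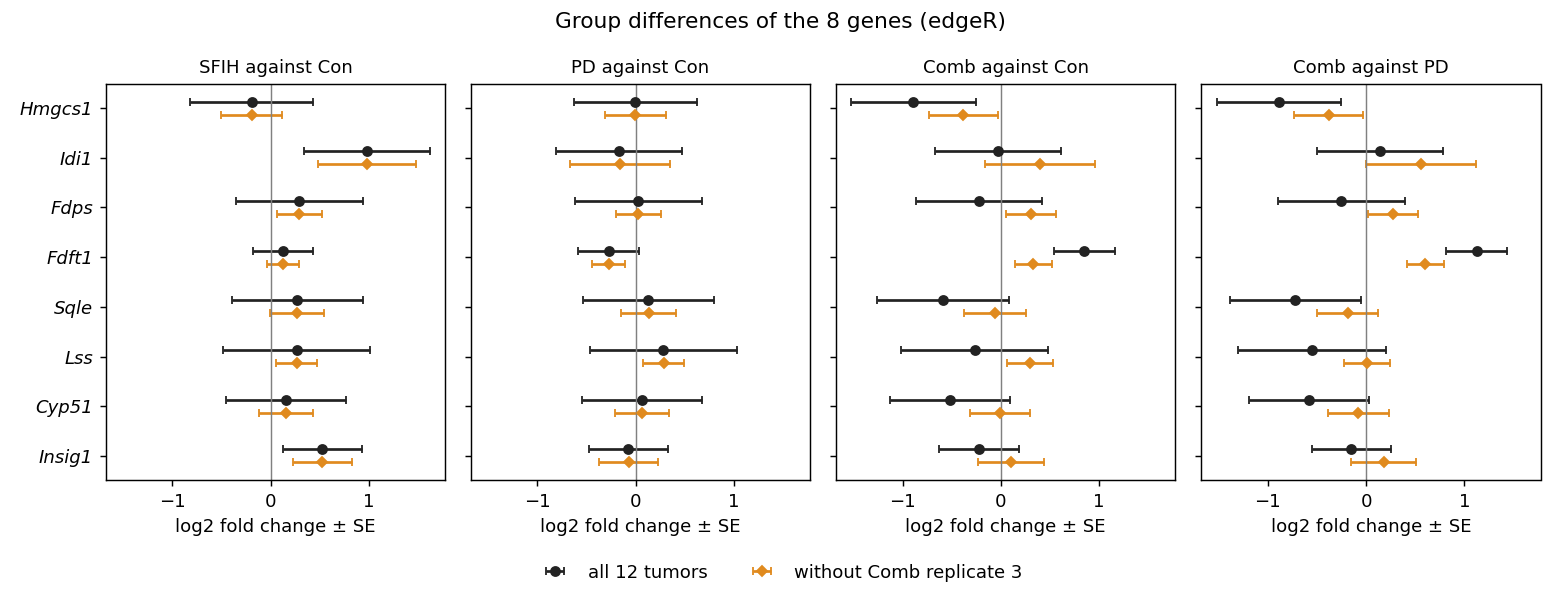
Log2 fold change with its SE for the 8 genes in 4 comparisons (edgeR), with all 12 tumors in black and without Comb replicate 3 in orange. In the SFIH and PD panels the fold changes hardly move and the SEs shrink, while in the Comb panels Idi1, Fdps, Lss and Insig1 change from -0.03 to -0.27 against Con to 0.11 to 0.40.

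Fdft1 was fitted higher in every comparison that involves the Comb group, where most of the other genes were fitted lower. It was 0.85 ± 0.31 higher in Comb than in Con, with an unadjusted p of 0.0195 and an adjusted p of 0.127 (edgeR). Against PD, where it averaged 43.9 ± 3.80 CPM with 95.7 ± 50.6 in Comb (mean ± SD, n = 3), it was 1.12 ± 0.31 higher, with an unadjusted p of 0.00424 and an adjusted p of 0.243 by edgeR and an adjusted p of 0.0408 by DESeq2, which called 3.23% of the genes it tested. The 3 Comb tumors lay above the 3 PD tumors, as they did for 6.16% of all genes, and the exact permutation p was 0.1. Against SFIH it was 0.72 ± 0.31 higher with an adjusted p of 0.240, and the interaction was 0.997 ± 0.440 with an unadjusted p of 0.0441 and an adjusted p of 0.894 (edgeR), and 0.48 without Comb replicate 3. Without Comb replicate 3 the values against Con, PD and SFIH were 0.33, 0.60 and 0.20, and DESeq2 on these 11 tumors called no member. Leaving out Comb replicate 1 instead raised them to 1.10, 1.39 and 0.99 with adjusted p of 0.0178, 0.0235 and 0.0327 (edgeR), in fits that called 28.5%, 15.2% and 22.5% of all genes, so each call depends on which tumors are kept.

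The 3′ end of Fdft1 overlaps that of Ctsb. In the GENCODE M21 annotation the genes lie tail to tail on opposite strands and share 774 exonic bases, in the stretch where 3′ reads fall. Ctsb encodes cathepsin B, a lysosomal protease abundant in macrophages. Its level was 496, 400.4 and 451 CPM in the Con tumors, 466, 424 and 427 in the SFIH tumors, 319, 789 and 432 under anti-PD-1 alone, and 412, 1146 and 4630 in the Comb tumors. Comb replicates 2 and 3 were the highest tumors for both genes, at 255% and 1031% of the Con mean for Ctsb and 140.3% and 289% for Fdft1, although on plain library totals SFIH replicate 1, at 78.1 CPM, exceeded Comb replicate 2, at 65.7 CPM, for Fdft1. In PD replicate 2, however, Ctsb was at 176% and Fdft1 at 75.5%. Whether reads were assigned by strand is not given in the sources used here, and the part of Ctsb reads in the Fdft1 counts was not tested.

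**Figure D4:**
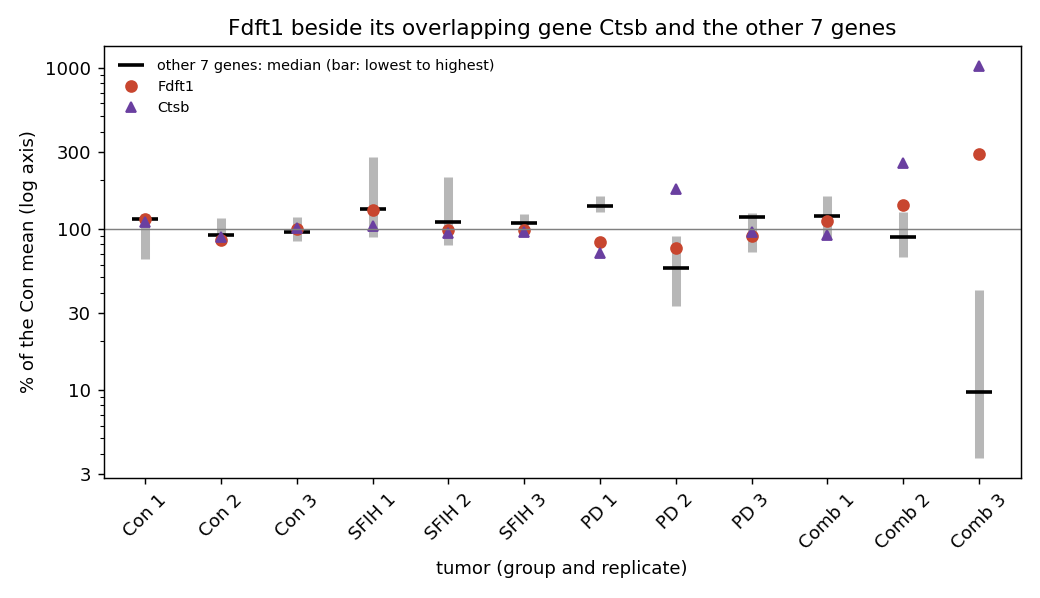
Percent of the Con mean (log axis) in each tumor for Fdft1, for Ctsb, which overlaps its 3′ end, and for the other 7 genes (bar from lowest to highest, dash at the median). In Comb replicate 3 Ctsb is at 1031% and Fdft1 at 289%, while the other 7 genes lie between 3.75% and 41.5%.

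Other members overlap annotated genes too. Cyp51 shares 166 exonic bases at its 3′ end with Akap9 on the opposite strand, which encodes a scaffold protein and stood at 132 CPM in Comb replicate 3 and 208 to 341 in the other tumors. Lss overlaps the antisense gene 4930483K19Rik, which had at most 26 counts in any tumor. Fdps shares 1124 exonic bases on the same strand with the gene model Gm43738. On the opposite strand, Hmgcs1 shares 557 exonic bases with Gm48342 and Idi1 shares 323 with Gm48574, in neither case at the 3′ end of the member. Such overlaps can limit how far the counts are ascribed to 1 gene, and their part in the counts was not tested.

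Of 15 further enzymes of the pathway, 14 were tested, and Tm7sf2 had too few counts. No enzyme was called by edgeR in any comparison. In SFIH against Con 12 of 14 were fitted higher with a median of 0.14, with Ebp, the sterol isomerase, at 0.28 ± 0.18, Mvd, the mevalonate diphosphate decarboxylase, at 0.52 ± 0.59 and Acat2, an acetoacetyl-CoA thiolase, at 0.21 ± 0.28, while Hsd17b7 was at -0.10. In Comb against Con 13 of 14 were fitted lower, with a median of -0.30 that became 0.02 without Comb replicate 3. Comb replicate 3 was the lowest tumor for 12 of the 14 (38.6% of all genes), all but Ebp and Dhcr7, and PD replicate 2 the lowest of the other 11 for 10 of the 14 (12.1% of all genes). Ggps1, the geranylgeranyl diphosphate synthase of a side branch, was instead highest of the 12 tumors in PD replicate 2, at 50.5 CPM.

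Ebp was the enzyme of these 14 fitted higher in Comb than in Con. It was at 144, 119.7 and 144 CPM in the Con tumors, 169.9, 143 and 181 in the SFIH tumors, 152, 149 and 141 under anti-PD-1 alone, and 193, 237 and 155 in the Comb tumors. All 3 Comb tumors lay above the Con tumors, as they did for 11.7% of all genes, but on plain library totals Comb replicate 3, at 117 CPM, lay below the Con tumors, at 124 to 161. The difference was 0.52 ± 0.19 with an unadjusted p of 0.0168 and an adjusted p of 0.119 by edgeR, and DESeq2, which called 14.9% of the genes it tested in this comparison, gave an adjusted p of 0.0278. Without Comb replicate 3 it was 0.66 with an adjusted p of 0.0896 (edgeR).

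**Figure D5:**
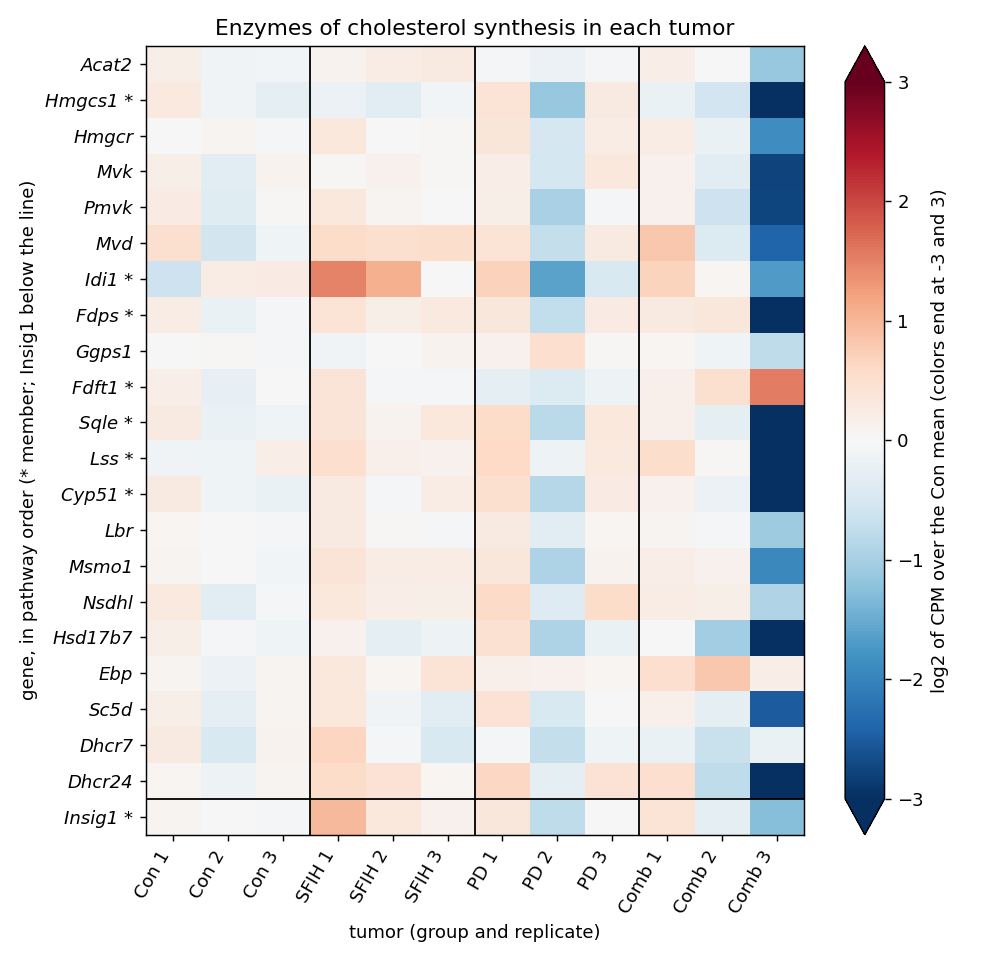
Log2 of CPM over the Con mean for the enzymes of cholesterol synthesis in pathway order, with the members starred and Insig1 below the line, in the 12 tumors by group. Comb replicate 3 is blue for most genes, Fdft1 is red at 289% of the Con mean and Ebp pale red at 114%, and PD replicate 2 is a paler blue column.

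Sterol sensing, uptake and lysosomal release were covered by 14 genes, of which 13 were tested and none was called by edgeR. In Comb against Con, 4 were fitted higher and 9 lower, with a median of -0.33 (-0.17 without Comb replicate 3). Mbtps1 and Mbtps2, which encode the proteases that cleave SREBPs, were at -0.73 ± 0.21 and -0.62 ± 0.18, with adjusted p of 0.0750 and 0.0781 by edgeR and of 0.0128 and 0.00721 by DESeq2, which called 14.9% of all genes it tested. Without Comb replicate 3 they were at -0.61 and -0.48 with adjusted p of 0.147 and 0.144 (edgeR), and in both genes all Comb tumors lay below all Con tumors, as in 13% of all genes. Mbtps2 was at 30.4, 32.5 and 32.8 CPM in Con and 24.6, 21.2 and 16.4 in Comb. The PD tumors, at 26.0, 22.2 and 25.1 CPM, also lay below all Con tumors, as in 9.36% of all genes, with a difference of -0.39 ± 0.18.

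Lipa and Npc2, both lysosomal, were fitted higher, while Npc1, the lysosomal membrane partner of Npc2, was at 0.11 ± 0.21 against Con and at -0.08 without Comb replicate 3. Lipa, the acid lipase that frees cholesterol from esters, was at 52.5, 123 and 428 CPM in Comb against 55.1 to 69.3 in Con, and Npc2, which carries it out of the lysosome, at 722, 1054 and 2377 against 598 to 761. Their differences from Con were 1.72 ± 0.60 and 1.08 ± 0.36, and 0.52 and 0.44 without Comb replicate 3. With all tumors the adjusted p were 0.115 and 0.104 by edgeR and 0.0301 and 0.0335 by DESeq2, which called 14.9% of the genes it tested. The high Comb values were in replicates 2 and 3, the tumors with the highest macrophage sums (4120 and 15034 CPM), and Lipa was also at 132 CPM in PD replicate 2 (macrophage sum 2059 CPM), and the part of macrophages was not tested.

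A list of 10 genes held the liver X receptors, which respond to oxysterols, their targets and other genes of sterol export and conversion. In Comb replicate 3, 6 of the 10 were highest, against 34.1% of all genes, while Lpcat3, a phospholipid acyltransferase, at 69.2% of the Con mean, and Soat1, which esterifies cholesterol, at 45.5%, were lowest there. Of the 10 genes, 8 were fitted higher in Comb than in Con with a median of 1.24 (0.98 without Comb replicate 3). Apoe, the apolipoprotein of macrophage cholesterol efflux, was at 470, 293 and 504 CPM in the Con tumors, 338, 514 and 541 in the SFIH tumors, 665, 2039.5 and 1327 under anti-PD-1 alone, and 487, 4063 and 10332 in the Comb tumors. The transporter genes Abca1 and Abcg1 stood at 12.5, 94.7 and 207 CPM and at 13.7, 49.8 and 167 in Comb, against 15.3 to 21.0 and 8.73 to 15.2 in Con. Under anti-PD-1 alone they stood at 27.0, 74.3 and 40.8 CPM and at 20.8, 27.1 and 19.4. For Apoe and both transporter genes all PD tumors lay above all Con tumors, as in 9.42% of all genes. Each had an adjusted p of 0.9998 in PD against Con (edgeR). The Comb tumors overlapped the Con tumors for these genes. The differences of Comb from Con were 3.56 ± 0.84 for Apoe, 2.49 ± 0.73 for Abca1 and 2.66 ± 0.70 for Abcg1. Leaving out Comb replicate 3 gave 2.43, 1.52 and 1.38, with adjusted p of 0.112, 0.214 and 0.163 (edgeR). edgeR called none of these (adjusted p of 0.0665, 0.0785 and 0.0686), and DESeq2 called 4 of the 10 genes and 14.9% of all genes it tested. The part of macrophages in these values was not tested.

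Fatty acid synthesis, the SREBP1 branch, gave 14 tested genes and no call by edgeR. In Comb against Con 10 were fitted lower, with a median of -0.31 (-0.07 without Comb replicate 3). In Comb replicate 3, 8 of the 14 were lowest (38.6% of all genes). Me1, the malic enzyme that supplies NADPH, was at 103, 118 and 103 CPM in Con and 65.7, 43.3 and 14.2 in Comb. The difference was -1.39 ± 0.39, with an adjusted p of 0.0739 by edgeR and 0.00938 by DESeq2, which called 14.9% of the genes it tested. With Comb replicate 3 left out it was -0.98 with an adjusted p of 0.0880 (edgeR). All Comb tumors lay below all Con tumors for Me1, as in 13% of all genes, but so did the SFIH tumors, at 82.1, 78.8 and 81.7 CPM (8.86% of all genes), and the PD tumors, at 80.1, 73.2 and 79.3 (9.36%). Scd1, the stearoyl-CoA desaturase, was fitted higher, at 97.4, 101 and 75.7 CPM in Con and 116, 135 and 167 in Comb, with a difference of 0.61 ± 0.27 and an adjusted p of 0.182 (edgeR), and of 0.46 without Comb replicate 3. PD replicate 2 was the lowest of the other 11 tumors for 11 of these 14 genes (12.1% of all genes).

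Likeness between the genes was described by Spearman's rho over tumors that share libraries and scaling, without a test. Each gene was set against the mean of the other 7. Insig1 followed the others most closely, with a rho of 0.965 over 12 tumors and 0.873 over the 11 without Comb replicate 3. Sqle, Lss and Cyp51 had 0.846, 0.818 and 0.811, Fdps 0.741, Idi1 0.601 and Hmgcs1 0.455, while Fdft1 had -0.105 and 0.05 over 11 tumors. Among all other tested genes, those most like the mean of the 8 over 12 tumors were Gm4737 (0.965), Cdc20, Msmo1 and Tmem183a (0.937 each) and Bvht (0.930). Msmo1 is the sterol methyl oxidase of the same pathway, and Cdc20 acts in mitosis. Over the 11 tumors the first 5 were Nptxr (0.945), Npcd (0.936), Lypla2 (0.918), H2afz (0.909) and Nsdhl (0.900), of which none was shared with the first list. Nsdhl, a sterol dehydrogenase, is again an enzyme of the pathway.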

How the data were processed

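The authors built QuantSeq 3′ mRNA libraries from 12 tumors, sequenced single-end reads of 75 bases and deposited raw counts per gene, and the aligner, the genome build and the use of strand are not given in the sources used here. The counts were tested as deposited with edgeR 4.0.16 (R 4.3.3): filterByExpr by group, TMM scaling, 1 coefficient per group over all 12 tumors, the quasi-likelihood test, two-sided, with Benjamini-Hochberg adjustment over 13464 genes and a threshold of 0.05. The SE is the log2 fold change over the root of F. DESeq2 1.42.0 was the alternative tool, with other scalings, filters, a replicate block and each tumor left out in turn. The edgeR script was tested on simulated counts. Lists were described by counts and medians. From each, at most 3 genes per direction were named by lowest p among those with a mean of 50 or more counts in the higher group. Some genes, such as Npc1 and Ggps1, were named outside this rule, for their relation to a named gene or their rank in a tumor. The members and lists were chosen with earlier results of these data known. The fit by DESeq2 without Comb replicate 3 was added after seeing the data. For rho, log2(CPM + 1) was used. No tumors of a group agreed within sampling noise.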

Additional observations from a re-analysis of the deposited data

How the results depend on the processing

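edgeR called none of the 8 genes in the 6 comparisons, and the count was 1 in Comb against PD by DESeq2 and 0 to 1 with each tumor left out in Comb against Con, PD and SFIH (1 without Comb replicate 1, Fdft1 each time). Over the alternatives the sign held in 159 of 160 values for SFIH against Con, 145 of 160 for PD, 149 of 160 for Comb against Con, 151 of 160 against PD, 156 of 160 against SFIH and 151 of 152 for the interaction; where it did not, the cause was not tested. On plain totals Fdps and Cyp51 in PD against Con were -0.052 and -0.0095, and Comb replicate 3 held Fdft1 at 206% and Insig1 at 29.6% of the Con mean.

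With each tumor left out, the range for PD against Con was -0.28 to 0.34 (Hmgcs1), -0.92 to 0.22 (Idi1), -0.17 to 0.30 (Fdps), -0.14 to 0.44 (Sqle), -0.20 to 0.37 (Cyp51) and -0.35 to 0.18 (Insig1), with the lowest value without PD replicate 1 and the highest without PD replicate 2. Fdft1 in SFIH against Con ran from -0.036 to 0.23. In Comb against Con the range was -0.56 to 0.40 (Idi1), -0.62 to 0.31 (Fdps), -0.91 to 0.29 (Lss) and -0.68 to 0.11 (Insig1). In Comb against PD it was -0.38 to 0.89 (Idi1), -0.65 to 0.28 (Fdps), -1.18 to 0.011 (Lss) and -0.60 to 0.18 (Insig1), and against SFIH -0.92 to 0.013 (Fdps) and -1.17 to 0.028 (Lss).

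DESeq2 without Comb replicate 3, chosen after seeing the data, gave against Con 0.41 (Idi1), 0.32 (Fdps), 0.31 (Lss), 0.0051 (Cyp51) and 0.12 (Insig1), against PD 0.295 (Fdps), 0.025 (Lss) and 0.19 (Insig1), against SFIH 0.033 (Fdps) and 0.045 (Lss), and 0.0034 for the interaction of Fdps.

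Tumors with the same replicate number did not as a rule deviate together. A correlation over 0.1 was seen in 6 of 18 such pairs (range -0.288 to 0.409), the highest between PD replicate 1 and Comb replicate 1. In all other groups at once, 0 of 12 tumors correlated best with their own number. With the replicate number as a block, 0 of the 8 genes were called in each comparison.

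The SEs of the 8 genes ran from 0.31 to 0.75 between groups and up to 1.06 for the interaction. The lowest counts of Lss, Sqle and Insig1 were 10, 60 and 70, all in Comb replicate 3, whose total was 10981028 counts. For Idi1 the lowest count was 41, in PD replicate 2, which had the smallest total, 7870741. Counting error is larger for such low counts.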

Other observations

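Thrsp, a lipogenic gene known from liver and fat, was at most 2.23 CPM in 10 tumors and at 20.9 and 28.8 CPM in Comb replicates 2 and 3. Comb against Con was 4.92 ± 1.43 on the log2 scale, and the groups overlapped. The adjusted p was 0.0765 by edgeR and 0.00295 by DESeq2, which called 14.9% of the genes it tested. Without Comb replicate 3 the difference was 4.29, with an adjusted p of 0.144 (edgeR). The adipocyte markers summed to 512 and 1401 CPM in those tumors and to 33.4 to 147 in the other 10, and their part was not tested.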
